A study of Bos taurus with 48 samples.

Results

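Gene expression in the liver of dairy calves was compared with gene expression in the fat pad of the mammary gland, the adipose tissue that surrounds the growing epithelium. The comparison held every liver and fat pad library of 2 diets, which gave 24 libraries of the 47 with counts that were read (48 samples are labelled in all). The first group was 12 liver libraries, 6 from calves on restricted nutrition, whose daily allowance of milk replacer was cut, and 6 from calves on unlimited nutrition, which were offered milk replacer freely at several meals a day. The second group was 12 fat pad libraries, 6 from each of the same diets. Diet was a covariate, and the result is the difference between the tissues over both diets. All 24 samples were total RNA of Bos taurus calves, depleted of ribosomal RNA. Breed and age are not stated in the labels. Libraries of one group carry different numbers, and both tissues carry the same 12 numbers, but the labels do not say that a number is a calf. Nothing else in the labels tells whether libraries of one group came from different calves. The libraries were treated as independent, and p-values here reflect only how these samples vary, which may be partly technical. In a piece of whole tissue, fewer cells of a type and less RNA per cell cannot be told apart.

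The liver is built mostly of hepatocytes, which make the proteins of blood plasma, release glucose, form urea and bile acids, and detoxify foreign compounds. The mammary fat pad holds adipocytes, which store and release triglyceride and secrete hormones such as leptin and adiponectin, within a stroma of fibroblasts, matrix and vessels. In young ruminants adipose tissue is also a main site of fatty acid synthesis. The tables list genes by Ensembl identifier and the names of these genes were not paired with them here, so the tissues could not be checked against hepatocyte and adipocyte markers, and the genes below carry no role.

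Libraries separated by tissue first. The first principal component of log2 CPM (read counts relative to library size, with library sizes scaled by TMM) held 83.5% of the variance and put all 12 liver libraries on one side and all 12 fat pad libraries on the other. The second held 2.22%. The root mean square difference between a liver and a fat pad library was 2.22 to 2.58 log2 units over 16228 genes, with a median of 2.43. Between 2 liver libraries it was 0.587 to 1.11, and between 2 fat pad libraries 0.528 to 0.875. Every distance across tissues was therefore larger than every distance within one. Unlimited liver libraries 3 and 6 stood apart from the other liver libraries on the second component, at -37.8 and -76.2, where the other 10 lay between -9.54 and 33.4. They also had the lowest shares of reads assigned to genes among the livers, 25.5% and 26.0%. Restricted fat pad library 8 showed the same among the fat pads, at -38.9 on the second component, where the other 11 lay between -21.2 and 25.1, and with 26.4% of reads assigned, against at least 34.0% in the others. The 4 control fat pad libraries, which were not in the comparison, stood apart from the 12 fat pad libraries in it. The summed level of the genes at least 64-fold higher in liver was 2323 to 3177 CPM in control fat pad and 432 to 802 CPM in the 12. The share of counts in genes at least 4-fold lower in liver was 3.36% to 16.2% in control fat pad and 12.5% to 19.1% in the 12. The 3.36% was control fat pad library 18 alone, and libraries 1, 2 and 21 were at 11.3%, 12.3% and 16.2%. In 3 control libraries of mammary parenchyma, the epithelial part of the gland, the summed level was 2348 to 3370 CPM and the share 10.1% to 12.7%. By the first measure, control fat pad was thus nearer to control parenchyma than to the 12. The counts of genes, the levels and the spread are given with and without the 3 libraries of the comparison that stood apart (unlimited liver 3 and 6 and restricted fat pad 8) where a value without them was computed.

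**Figure D1:**
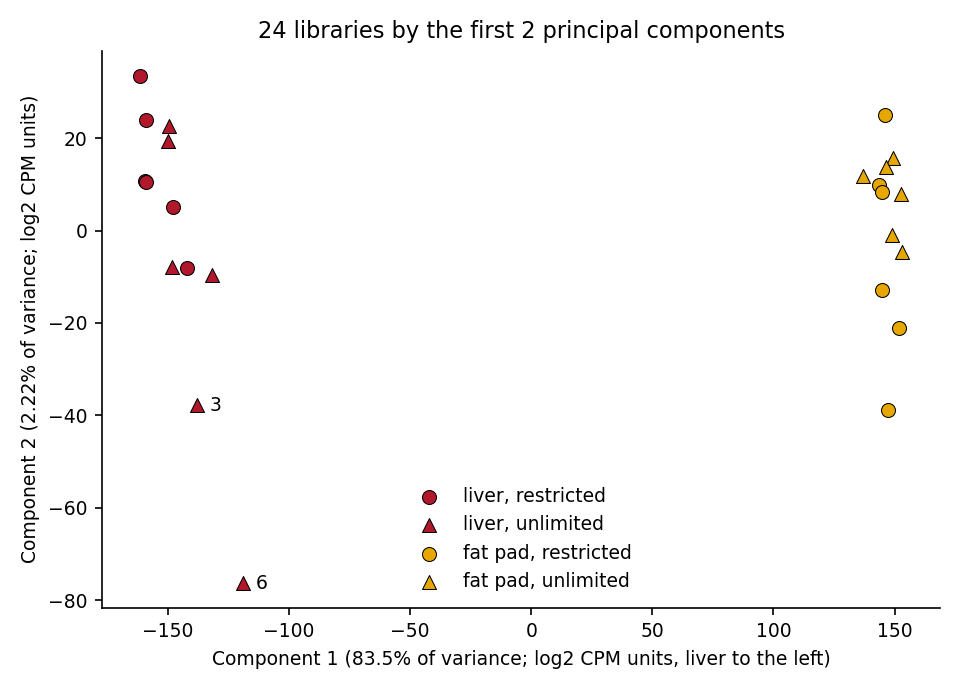
Each point is a library, placed by the first principal component (horizontal, 83.5% of variance) and the second (vertical, 2.22%) of log2 CPM, with liver in red and fat pad in yellow, and with circles for restricted and triangles for unlimited calves. The tissues do not overlap on the horizontal axis, and unlimited liver libraries 3 and 6 lie lowest among the livers, with restricted fat pad library 8 lowest among the fat pads.

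Total gene counts were 9.51 to 17.4 M reads in liver and 10.4 to 19.0 M in fat pad. Liver libraries averaged 13.6 ± 2.72 M and fat pad libraries 14.7 ± 2.21 M (SD, n = 12 each, two-sided permutation p = 0.297, adjusted p = 0.297 over 4 library measures). Of reads that were assigned to a gene, outside genes or ambiguous between genes, the share assigned was 33.7% ± 5.26 in liver and 37.8% ± 5.06 in fat pad (permutation p = 0.0628, adjusted p = 0.0838). The difference in that share was -10.1 percentage points in unlimited calves (exact permutation, adjusted p = 0.0115) and 1.85 in restricted calves (adjusted p = 0.647). Whether it differed between the diets was not tested. Unlimited liver libraries 3 and 6 (25.5% and 26.0%) and restricted fat pad library 8 (26.4%) are in these values, which were not computed without them. Reads placed in more than a single position made up 12.3% ± 1.24 in liver and 9.80% ± 1.19 in fat pad (permutation p = 0.0001, adjusted p = 0.0002).

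Liver gene counts were concentrated in few genes. The 10 most abundant genes of a library took 19.0% to 22.5% of its gene counts in liver, median 21.5%, and 10.3% to 16.2% in fat pad, median 11.8%. The groups did not overlap, and the mean difference was 9.06 percentage points (permutation p = 2e-05, the smallest the 100000 resamples can give, adjusted p = 8e-05). The 100 most abundant genes took 37.5% to 43.7% in liver and 22.6% to 30.3% in fat pad. To reach 50% of the counts took 177 to 365 genes in liver, median 250, and 658 to 925 genes in fat pad, median 815. Liver libraries 3 and 6 of unlimited calves needed the most genes among livers, 365 and 326, and still fewer than any fat pad library. Between 13617 and 14231 genes reached 1 CPM in a liver library and between 13924 and 14561 in a fat pad library, so the number of genes at that level overlapped between the tissues. Counts were not divided by gene length, so the ranking is of reads and not of transcript molecules.

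**Figure D2:**
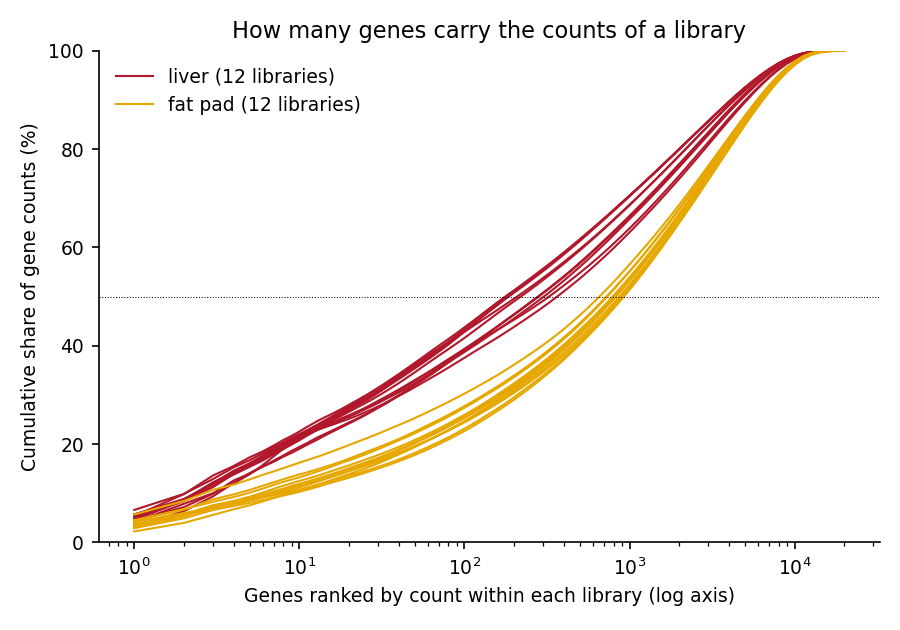
Lines give, for each library, the cumulative percentage of gene counts (vertical) held by its most abundant genes in order of rank (horizontal, log axis), with 12 liver libraries in red and 12 fat pad libraries in yellow. The dotted line marks 50%, which liver libraries cross at 177 to 365 genes and fat pad libraries at 658 to 925.

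Most measured genes differed between the tissues. Of 16228 genes tested, 12574 or 77.5% passed an adjusted p of 0.05 in edgeR's quasi-likelihood test, 5954 of them higher in liver (36.7% of genes tested) and 6620 lower in liver (40.8%). With the 3 libraries that stood apart left out, the counts were 6199 and 6646. The median absolute log2 fold change of the called genes was 1.17. Among called genes, 1436 of the higher and 1587 of the lower ones differed by less than 1.5-fold, while 514 of the higher and 321 of the lower ones differed by 64-fold or more. At 10 or more log2 units there were 216 genes higher and 25 lower in liver.

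Among the called genes, 1793 were at least 4-fold higher in liver (11.0% of genes tested) and 2099 at least 4-fold lower in liver (12.9%). Without the 3 libraries that stood apart the counts were 1885 and 2220. The split depends on how libraries are scaled. With library totals and no scaling factor, the median log2 fold change of all genes was -0.81, against -0.06 with TMM, and 29.2% of the 4-fold genes were higher in liver, against 46.1% with TMM. For all called genes the share that was higher in liver was 21.8% with library totals and 47.4% with TMM.

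In 5579 genes, 34.4% of those tested, every library of one tissue lay above every library of the other, 2637 with liver above and 2942 with liver below. All 5579 were among the called genes, and the other 6995 called genes had libraries that overlapped between the tissues. Of the genes at least 4-fold apart, 1512 of 1793 on the liver side and 1606 of 2099 on the fat pad side showed no overlap. With those 3 libraries left out, genes with no overlap numbered 3218 with liver above and 3337 with liver below.

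The 2 sides differed in how abundant their genes were. The 1793 genes at least 4-fold higher in liver had a median level of 41.8 CPM in liver and 1.14 CPM in fat pad. The 2099 genes at least 4-fold lower in liver had a median level of 0.570 CPM in liver and 9.51 CPM in fat pad. Of 161 genes above 1000 CPM in the tissue where they were higher, 98 were on the liver side of the 4-fold threshold and 16 on the fat pad side. In the range from 100 to 1000 CPM the counts were 552 and 171 of 2326 genes. From 10 to 100 CPM they turned to 599 and 834 of 8499, and from 1 to 10 CPM to 521 and 923 of 4481. On TMM-scaled levels the fat pad side therefore held more genes and the liver side more of the abundant ones. TMM factors averaged 0.774 in liver and 1.30 in fat pad, which raises liver levels against fat pad levels. The abundance counts were not computed on library totals. With the 3 libraries left out, the counts above 1000 CPM were 111 on the liver side and 16 on the fat pad side, and those from 100 to 1000 CPM were 569 and 160.

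**Figure D3:**
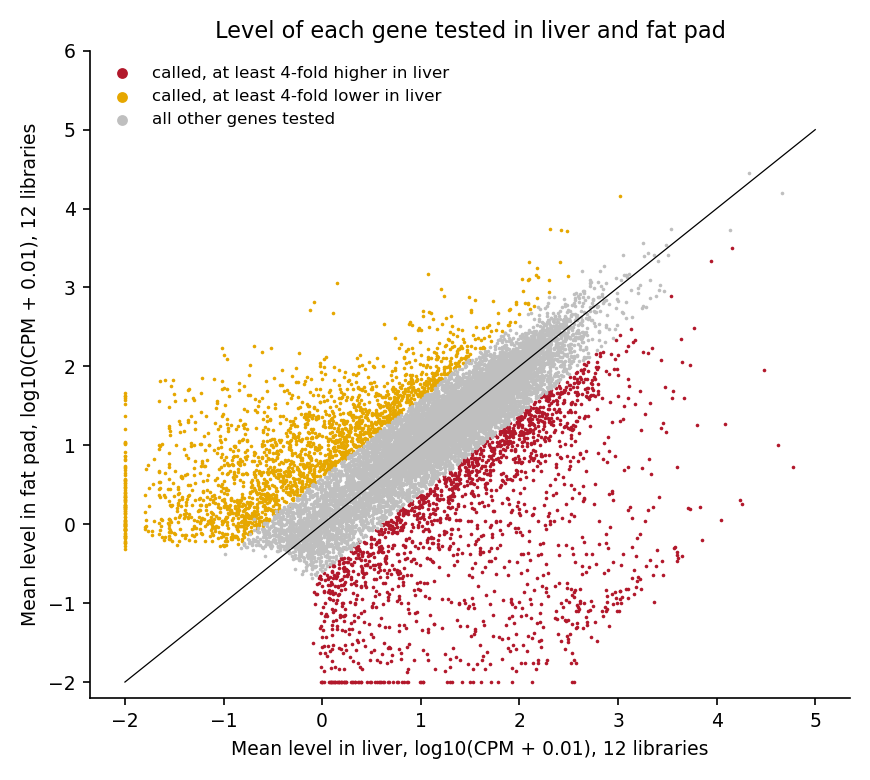
Each point is a gene tested, placed by its mean level in 12 liver libraries (horizontal) and in 12 fat pad libraries (vertical), both as log10(CPM + 0.01), with called genes at least 4-fold higher in liver in red, those at least 4-fold lower in liver in yellow and the rest in grey. The line marks equal level, and the red points reach further along the abundant end than the yellow ones, with 98 against 16 genes above 1000 CPM.

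These gene groups filled different shares of the libraries. Genes at least 4-fold higher in liver took 36.3% to 54.0% of the gene counts of a liver library, median 48.0%, and 2.88% to 3.99% of a fat pad library. Genes at least 4-fold lower in liver took 0.624% to 1.49% of a liver library and 12.5% to 19.1% of a fat pad library, median 16.4%. These shares describe groups chosen on the same libraries and carry no test. Unlimited liver libraries 3 and 6 had the lowest share on the liver side, 36.3% and 37.5%, against 45.8% to 54.0% in the other 10. Genes that did not pass the test took 10.5% to 16.0% of liver and 19.6% to 21.9% of fat pad counts.

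Among the 100 genes with the highest mean level in liver, 91 were called higher in liver, 75 of them by at least 4-fold, and 6 were not called. Among the 100 with the highest mean level in fat pad, 68 were called lower in liver, 26 of them by at least 4-fold, and 15 were not called. The 2 lists shared 24 genes. With the 3 libraries left out, 93 of the 100 were called higher in liver and 68 of the 100 lower in liver. Background shares of calls were 36.7% higher and 40.8% lower in liver, and 11.0% and 12.9% at 4-fold or more.

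The 4 genes of lowest p with a mean of at least 1 on the log2 CPM scale, 2 for each direction, lie near the extreme of the differences and not at their middle, a median absolute log2 fold change of 1.17 for called genes. ENSBTAG00000020859 had the lowest p of all genes. Its level was 917 to 1782 CPM in the 12 liver libraries, median 1399, and 0.111 to 0.536 CPM in the 12 fat pad libraries, median 0.241, where it had 2 to 10 reads. Every liver library lay far above every fat pad library. Its log2 fold change was 12.39 ± 0.21 (SE, edgeR adjusted p = 9.83e-25), higher in 12 of 12 liver libraries.

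ENSBTAG00000020184 was at 111 to 276 CPM in liver, median 185, and at 0 in 11 of 12 fat pad libraries. Restricted fat pad library 10 held the only 2 reads, or 0.0884 CPM. The ratio of pooled levels, liver over fat pad, was 21530 with a 95% counting interval of 5960 to 177800, which covers counting error alone. The fitted difference, 13.41 ± 0.25 on the log2 scale (SE, edgeR adjusted p = 2.07e-24), rests on those 2 reads and on the prior count of the fit. That prior is edgeR's default and not the prior count used for log2 CPM. Without that library the fitted difference was 14.37.

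ENSBTAG00000002075 had the lowest p of the genes lower in liver. It was at 0 to 0.443 CPM in liver, median 0.216, with 4 of 12 libraries at 0 and at most 6 reads in any, and at 142 to 219 CPM in fat pad, median 185. Its log2 fold change was -9.77 ± 0.23 (SE, edgeR adjusted p = 9.82e-23), and all 12 liver libraries lay below all 12 fat pad libraries.

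ENSBTAG00000001250 was at 0 in 11 of 12 liver libraries, with 3 reads or 0.251 CPM in restricted liver library 5, and at 52.2 to 97.4 CPM in fat pad, median 61.6. The ratio of pooled levels, fat pad over liver, was 2823 with a 95% counting interval of 966 to 13690. The fitted difference was -11.02 ± 0.27 on the log2 scale (SE, edgeR adjusted p = 2.44e-22), and without that library it was -12.95.

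Libraries outside the comparison gave further levels of these 4 genes. In the 4 liver libraries of control calves, which were on standard nutrition, ENSBTAG00000020859 was at 1315 to 2339 CPM and ENSBTAG00000020184 at 116 to 250 CPM, while ENSBTAG00000002075 was at 0 to 0.779 CPM and ENSBTAG00000001250 at 0 in all. In the 12 mammary parenchyma libraries of restricted and unlimited calves, the epithelial part of the gland, ENSBTAG00000020859 was at 0 to 0.601 CPM and ENSBTAG00000020184 at 0 to 0.331 CPM. ENSBTAG00000002075 was at 68.1 to 265 CPM in that tissue, a range that holds all 12 fat pad values. ENSBTAG00000001250 was at 0.193 to 1.09 CPM there, below all 12 fat pad libraries of the comparison. The 4 fat pad libraries of control calves did not show the fat pad levels of the comparison. ENSBTAG00000001250 was at 0 to 1.02 CPM in them, where the 12 compared fat pad libraries had 52.2 to 97.4 CPM and 3 control parenchyma libraries 0.462 to 0.818 CPM. ENSBTAG00000002075 was at 16.3 to 120 CPM in control fat pad, where the 12 had 142 to 219 CPM and control parenchyma 32.7 to 81.6 CPM. For both genes every control fat pad library lay below all 12. The genes higher in liver were low there too, at 0.154 to 0.572 CPM for ENSBTAG00000020859 and at 0 in all 4 for ENSBTAG00000020184.

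**Figure D4:**
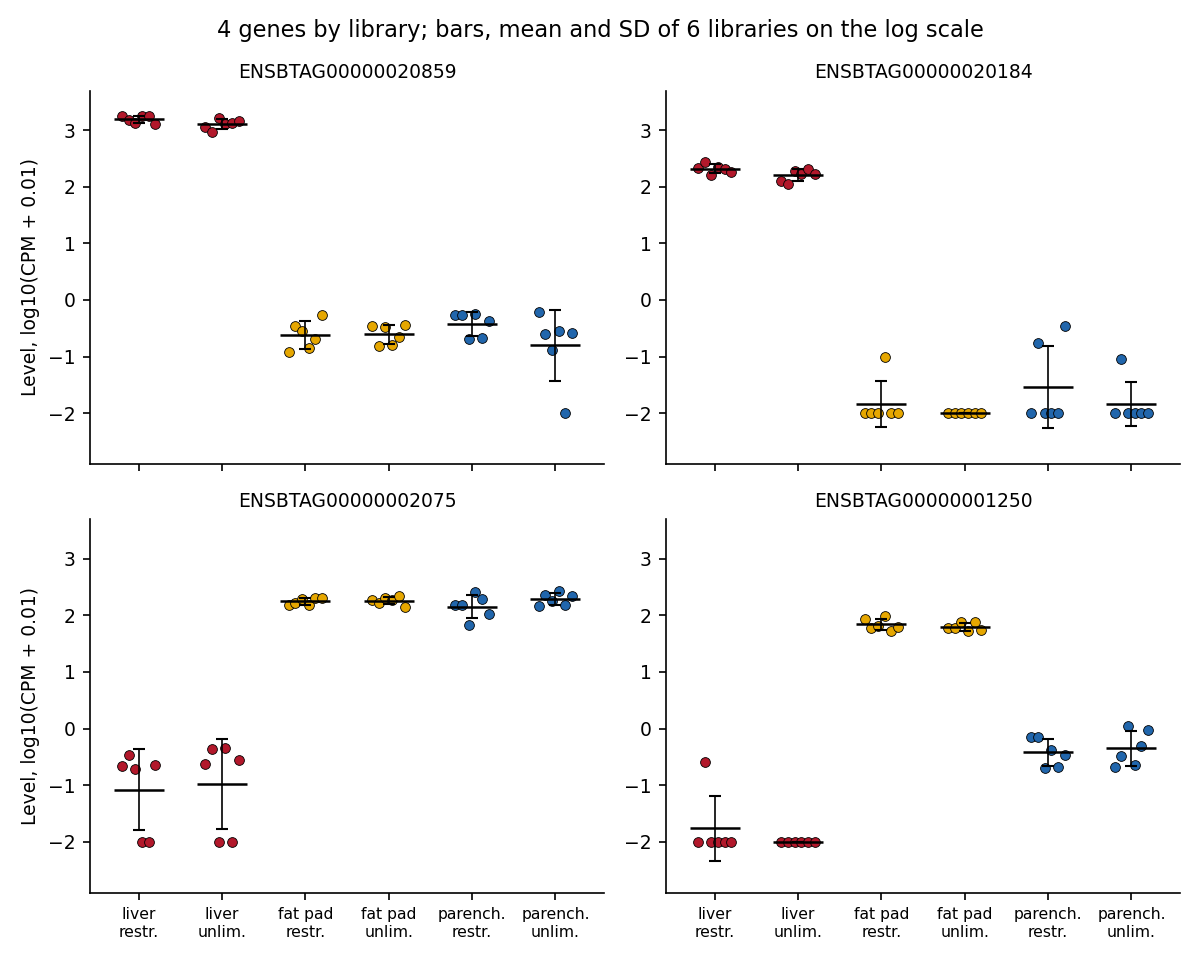
Points give the level of the 4 genes, as log10(CPM + 0.01), in each library of liver (red), fat pad (yellow) and parenchyma (blue) of restricted and unlimited calves, with lines for the mean and bars for the SD of 6 libraries on that scale. Among these libraries the upper genes are high in liver, ENSBTAG00000002075 is high in fat pad and parenchyma, and ENSBTAG00000001250 is high in fat pad and at most 1.09 CPM in the others.

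Genes read in a single tissue were few. With at least 1 CPM in all 12 libraries of a tissue and no read in any of the 12 of the other, there were 30 genes for liver and 26 for fat pad, and with the 3 libraries that stood apart left out, 36 and 33. Allowing up to 0.1 CPM in the other tissue gave 56 genes for liver and 28 for fat pad, but this limit is not alike in both. A single read was worth 0.0730 to 0.134 CPM in liver and 0.0414 to 0.0714 CPM in fat pad, so a single read could exceed the limit in some liver libraries and in no fat pad library. The 56 liver genes had mean levels of 2.84 to 610 CPM in liver, median 20.2, with 12 above 100 CPM. The 28 fat pad genes had mean levels of 2.21 to 46.4 CPM in fat pad, median 6.99, and none was above 100 CPM. Of the 30 liver genes, 25 were at 1 CPM or more in all 4 control liver libraries and 23 had no read in any of the 4 control fat pad libraries. Of the 26 fat pad genes, 19 had no read in any control liver library. In control fat pad, however, 0 of the 26 reached 1 CPM in all 4 libraries and 11 were below it in all 4, and the single libraries 1, 2, 18 and 21 had 6, 11, 1 and 13 of the 26 at that level. In the 12 parenchyma libraries, 26 of the 56 liver genes were at 0.1 CPM or less in all, and 8 of the 28 fat pad genes were at 1 CPM or more in all.

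The most abundant of the liver genes were seen at low levels in fat pad libraries. In all, 71 genes had a mean of at least 1000 CPM in liver and were called at least 64-fold higher there, and 37 of them had a read in all 12 fat pad libraries. For each 10000 CPM in liver, these genes had a median of 1.79 CPM in fat pad, with quartiles of 1.02 and 12.2 and a range of 0.406 to 134. The choice of genes at least 64-fold apart limits these values from above, so they are a description of the chosen genes. With the 3 libraries left out, 78 genes met the choice and the median was 1.38 CPM. The median in single fat pad libraries was 1.19 to 2.38. In parenchyma of the same diets which was not used in the choice, the median was 2.06 CPM for each 10000 CPM in liver and the highest value 1001. All libraries were sequenced in a single pool, per the labels' protocols, and the part of pooling in these low levels was not tested.

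The tissue difference was measured separately on each diet, in libraries that the diets do not share. In restricted calves, 6 liver against 6 fat pad libraries gave 5218 genes higher and 5423 lower in liver, together 70.1% of 15188 tested. In unlimited calves the counts were 4928 and 5247, together 67.1% of 15161. Over 14896 genes tested on both diets, 10465 were called in restricted and 10025 in unlimited calves, and 8785 were called on both, 11 of these in opposite directions. The genes called on both diets in one direction were 83.8% of the restricted and 87.5% of the unlimited calls. Genes at least 4-fold apart on both diets in one direction numbered 2882, or 84.2% of 3421 in restricted and 92.6% of 3111 in unlimited calves. Across these 14896 genes, which are not independent replicates, the log2 fold changes of the diets had a Pearson correlation of 0.974 and a Spearman correlation of 0.944, and the median absolute difference between them was 0.26. ENSBTAG00000020859 had log2 fold changes of 12.55 ± 0.30 in restricted and 12.27 ± 0.28 in unlimited calves, and ENSBTAG00000002075 -9.92 ± 0.28 and -9.59 ± 0.34 (SE). The values lay further apart for the genes with next to no reads in one tissue, at 13.04 ± 0.33 in restricted and 14.20 ± 0.38 in unlimited calves for ENSBTAG00000020184, and at -10.29 ± 0.40 and -12.84 ± 0.34 for ENSBTAG00000001250. These fitted values depend on the prior count of the fit, since each gene had its few reads in that tissue in a restricted library. In unlimited calves neither gene had a read there, so the fold has no upper bound and the SE does not measure its error. The differences between diets were not tested. With unlimited liver libraries 3 and 6 left out, 5133 genes were higher and 5602 lower in liver in unlimited calves, and the Pearson correlation with restricted calves was 0.974.

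**Figure D5:**
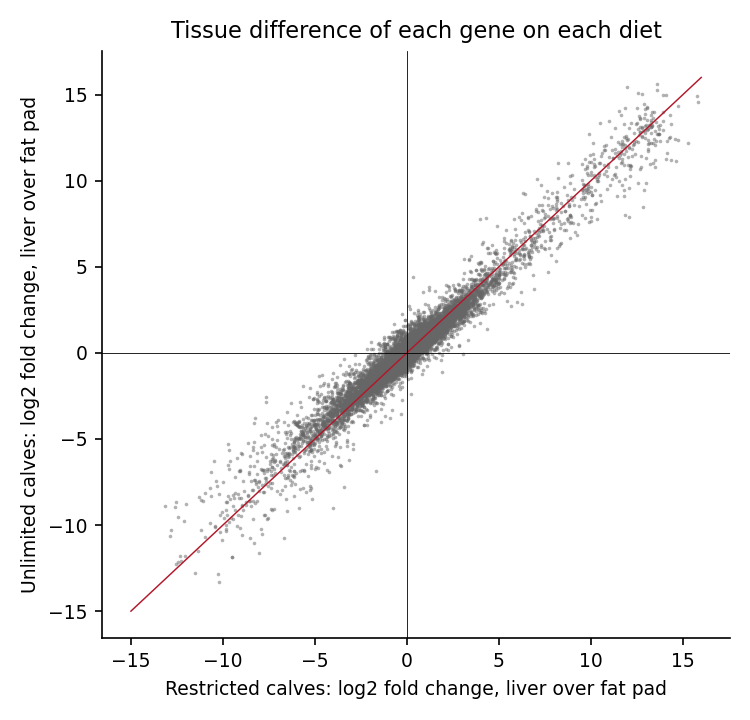
Each point is a gene, placed by its log2 fold change of liver over fat pad in restricted calves (horizontal) and in unlimited calves (vertical), each from 6 against 6 libraries. The red line marks equal values, and the 14896 genes have a Pearson correlation of 0.974 around it.

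Control liver and control fat pad libraries, which were not in the comparison, gave a difference between libraries with the same tissue labels. As given above, the control fat pad libraries were near control parenchyma in the level of liver genes and unlike the 12. The difference is therefore no plain repeat of the comparison. Between 4 control liver and 4 control fat pad libraries, 1301 of the 1793 genes on the liver side, or 72.6%, were at least 4-fold higher in liver again, against 10.9% of all genes tested, and 0 were at least 4-fold the other way. Of the 2099 genes on the fat pad side, 900 or 42.9% were at least 4-fold lower in control liver, against 7.57% of all genes tested, while 614 differed by less than 2-fold and 52 were at least 4-fold the other way. The median log2 difference was 3.13 for the liver side, against 3.73 in the comparison, and -1.66 for the fat pad side, against -3.43. These medians are of unlike measures. The comparison values are fitted log2 fold changes of genes chosen as at least 4-fold apart in it. The control values are differences of mean log2 CPM with a prior count of 2, which shrinks differences of genes near 0 in one tissue. The part of this in the smaller control medians was not tested. Against 3 control parenchyma libraries, the liver side had 1265 genes or 70.6% at least 4-fold higher in control liver and 8 the other way, with 11.5% of all genes tested. The fat pad side had 941 genes or 44.8% at least 4-fold lower in control liver than in control parenchyma and 72 the other way, with 8.69% of all genes tested. These control values are means of log2 CPM with no test, and both sets of differences share the 4 control liver libraries. The control fat pad means include library 18, with 3.36% of its counts in genes of the fat pad side, and were not computed without it.

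Genes at similar levels in both tissues could be bounded. For 3634 genes, 22.4% of those tested (3622 with the 3 libraries left out), the 95% interval of the fold change lay within 1.5-fold in either direction, and 1385 of them were called all the same. Of the 3654 genes that were not called, 2249 lay within this bound. The other 1405 had intervals too wide to place them, with a median mean level of 0.71 on the log2 CPM scale against 5.01 for the bounded genes, and a difference was not detectable for them at this depth. Among 11319 genes at 1 CPM or more in all 24 libraries, 8683 or 76.7% were called, close to the 77.5% of all genes tested, and 705 were at least 4-fold higher and 516 at least 4-fold lower in liver.

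The spread between libraries was larger in liver, as a description with no test. Over 10010 genes at 5 CPM or more in both tissues, the median SD of log2 CPM about the diet means was 0.29 in liver and 0.21 in fat pad, and 74.4% of the genes had the larger SD in liver. With the 3 libraries left out, the medians were 0.25 and 0.20 and the share 66.2%. In genes at least 4-fold apart and at 5 CPM or more on their own side, the median SD was 0.43 in liver for 1410 liver genes and 0.42 in fat pad for 1308 fat pad genes. The summed level of the genes at least 64-fold higher in liver was 252240 to 563270 CPM in liver, median 426910, and 432 to 802 CPM in fat pad. It was lowest in unlimited liver libraries 3 and 6, which also had the lowest shares of assigned reads. These CPM are on TMM-scaled library sizes, with factors of 0.676 to 0.915 in liver and 1.22 to 1.40 in fat pad. Summed CPM are therefore not shares of a library, and in liver they exceed the share of counts. A single read was worth 0.0730 to 0.134 CPM in liver and 0.0414 to 0.0714 CPM in fat pad, so the same CPM rests on fewer reads in liver. The parts of read depth and of the assigned share in the spread were not tested.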

How the data were processed

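The deposited HTSeq tables list read counts of 27607 genes by Ensembl identifier, and 5 summary entries that stayed out of library sizes and tests. The submitters' processing notes name FastQC, STAR 2.7.8, HTSeq 1.99.2, DESeq2 and the build ARS-UCD1.2. The labels state neither the strand setting nor the treatment of multi-mapped reads, so values of overlapping, antisense and near-identical genes may be mixed. The counts deposited by the authors were used unchanged. The reference table paired none of these identifiers with a symbol, so the gene lists and tissue markers could not be used. The genes named are the called ones of lowest p, 2 for each direction, among those whose log2 CPM averaged at least 1.

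The test of tissue used edgeR 4.0.16 under R 4.3.3 (filterByExpr with a minimum count of 10, TMM factors, robust quasi-likelihood F test) on 24 libraries, with diet as a covariate, and p-values were adjusted by Benjamini-Hochberg over all genes tested. Levels are CPM on TMM-scaled library sizes, log2 CPM used a prior count of 2, and intervals of fold changes are 95%. Fitted fold changes used edgeR's default prior count instead. The SE of a log2 fold change is its absolute value divided by the square root of the F statistic, and the intervals rest on it. Libraries of other groups were scaled to the same reference library. Library measures were compared with permutation tests (scipy 1.17.1). DESeq2 1.42.0 and limma 3.58.1 served as alternatives. Of 60 pairs of libraries within groups, none matched within sampling noise (lowest chi-square for each degree of freedom 15.8). The count test was tested on simulated data with far fewer changed genes than were called here, in random directions. That simulation does not test how the scaling behaves between tissues this different. The genes, thresholds and comparisons were chosen with earlier results of these data known.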

Additional observations from a re-analysis of the deposited data

Results flagged for a closer look

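A library stood far from the other 5 in 3 of 32 groups of 6, by a cut-off that chance passes in about 1 in 20 groups of continuous values. The 10 most abundant genes took 19.0% of the counts in restricted liver library 16, against at least 21.1% in the other 5. ENSBTAG00000001250 was at 0.251 CPM in restricted liver library 5 and at 0 in the other 5. ENSBTAG00000020184 was at 0.0884 CPM in restricted fat pad library 10 and at 0 in the other 5. The gene values rest on 3 and 2 reads. Where the other 5 libraries are at 0, any read passes the cut-off, so that rate does not apply to these genes.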

How the results depend on the processing

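Across 14 settings and the removal of each of 24 libraries in turn, the 4 genes kept their direction and their call. With library totals and no scaling factor, 2995 genes were higher and 10756 lower in liver, and genes with no overlap numbered 1465 with liver above and 6177 with liver below. With no filter on low counts, 3267 genes were at least 4-fold lower in liver, of 23950 tested. With upper-quartile factors the counts were 4876 higher and 7820 lower. DESeq2 gave 6121 and 6614, limma voom with quality weights 5960 and 6884, and the share of reads assigned as a covariate 5821 and 6648. Without 1 library, counts were 5901 to 6003 higher and 6612 to 6870 lower, and 1803 to 1846 and 2108 to 2230 at 4-fold or more. The difference in total counts was 0.146 M in restricted calves, opposite in sign to that over both diets, as was that in the assigned share, 1.85 percentage points. In unlimited calves the assigned share differed by -10.1 points and passed. The causes were not tested.

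The labels give both tissues the same 12 numbers. Libraries with the same number had correlated deviations over 0.1 in 3 of 12 pairs (range -0.0428 to 0.175), and pairs were to be used only if all were over 0.1, so the numbers were not taken as pairs. Even so, 11 of 12 correlations were positive and 8 of 12 liver libraries correlated best with their own number among the 6 of their diet, which is a hint of pairing from the data and not from the design. With the number as a replicate block, 5806 genes were higher and 6613 lower. TMM without the 10 most abundant genes of each tissue and the removal of unlimited liver libraries 3 and 6, alone (6190 and 6729) or with restricted fat pad library 8, were chosen after seeing the data. TMM factors without mitochondrially encoded genes, their share of counts and the gene lists were not run for want of names.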
